A study of Rattus norvegicus with 4 samples.

Results

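The genes of the Bcl2 family followed here are 10 regulators of mitochondrial apoptosis, chosen by symbol: the survival genes Bcl2, Bcl2l1 and Mcl1, the effector genes Bax and Bak1, and the BH3-only genes Bcl2l11, Bid, Bad, Bbc3 and Pmaip1. Of these, 8 are listed by name among the 25810 genes of the count files, and 7 had enough reads to be tested among 13726 genes. Mcl1 and Bbc3 are not analysed here. The libraries come from the RNA of untreated clones of PC12, a rat pheochromocytoma line with neuron-like properties. Of these clones wtPC12 has low levels of the repressor REST, and hrPC12 has spontaneously high levels. Each was sequenced in 2 libraries, and the question is whether survival and death genes differ with the clone. As a single clone stands for each level of REST, an effect of REST cannot be told apart from other properties of the clones. Nothing in the labels says that the libraries of a clone came from separate cultures, so the p values measure the spread between these libraries, which may be technical.

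Proteins of this family decide whether the outer mitochondrial membrane is opened, which releases cytochrome c and starts the caspase cascade. The survival proteins hold the effectors Bax and Bak1 in check. The BH3-only proteins act upstream, by neutralizing the survival proteins or by activating the effectors directly, and each senses a different kind of stress. In sympathetic neurons the balance of these proteins is known to set the response to the loss of trophic factors.

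The reads counted on genes ranged from 20.975 M in wtPC12 replicate 1 to 27.2465 M in hrPC12 replicate 1. Values are given as normalized counts, which are reads scaled by edgeR's TMM factors to the mean library, with the SD of 2 libraries. A count of 0 does not exclude up to 3 reads, which equal 2.54 to 3.49 normalized counts and cover counting error only. Rest rose 10.7-fold in hrPC12, from 43.0 and 132 to 964 and 915 normalized counts (adjusted p = 0.0115, edgeR). Left out in turn, wtPC12 replicate 1 and replicate 2 gave 6.97-fold and 21.8-fold. Of 6 tested chromaffin marker genes 5 were lower in hrPC12. Among these Th fell from 167885 ± 49564 to 19865 ± 1606 (SD, n = 2) normalized counts and Chgb from 657356 ± 43246 to 554 ± 376 (SD, n = 2). Of 6 tested fibroblast markers 3 rose (Col1a1, Col1a2 and Pdgfrb) and 2 fell. Of 2 tested white blood cell markers Cd68 rose 3.10-fold, from 20 and 28 to 89 and 86 reads, while Ptprc had at most 1 read in a library and Cd79b had none. The summed reads of the 7 white blood cell markers were 34 in each wtPC12 library and 95 to 101 in hrPC12. Those of the 7 fibroblast markers, most of them on Thy1, were 15472 to 15757 and 9584 to 11210. The part of these differences in the results below was not tested. In such bulk RNA, fewer cells that express a gene and less of its RNA per cell cannot be told apart. Between the wtPC12 libraries 13.7% of the tested genes differed by more than 2-fold, and 8.76% between the hrPC12 libraries. Of the 1885 such genes in wtPC12, 1379 were lower in replicate 1.

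At the thresholds of the study, an adjusted p under 0.01 and a log2 fold change (FC, hrPC12 over wtPC12) past 2, edgeR called 0 of the 7 tested members, where 10.3% of all tested genes were called (4.84% higher and 5.46% lower). DESeq2 called 1, Bcl2, where it called 1788 of the 13726 tested genes. At an unadjusted p under 0.05 there were 6 of the 7, where 46.3% of all tested genes passed. At an adjusted p under 0.05, without a limit of size, 3 members were higher in hrPC12 (Bcl2, Bak1 and Bid) and 1 was lower (Bad), where 16.1% of all tested genes were higher and 16.3% lower, 32.4% in all. The genes that rose were a survival gene, an effector and a BH3-only gene, and the gene that fell was BH3-only. In 6 of the 7 the libraries of the clones did not overlap, as was the case for 73.5% of all tested genes (37.9% with hrPC12 above and 35.6% with hrPC12 below). The median log2 FC of the 7 members was −0.49, and 0.06 over all tested genes. The plot of normalized counts by library shows these values.

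**Figure D1:**
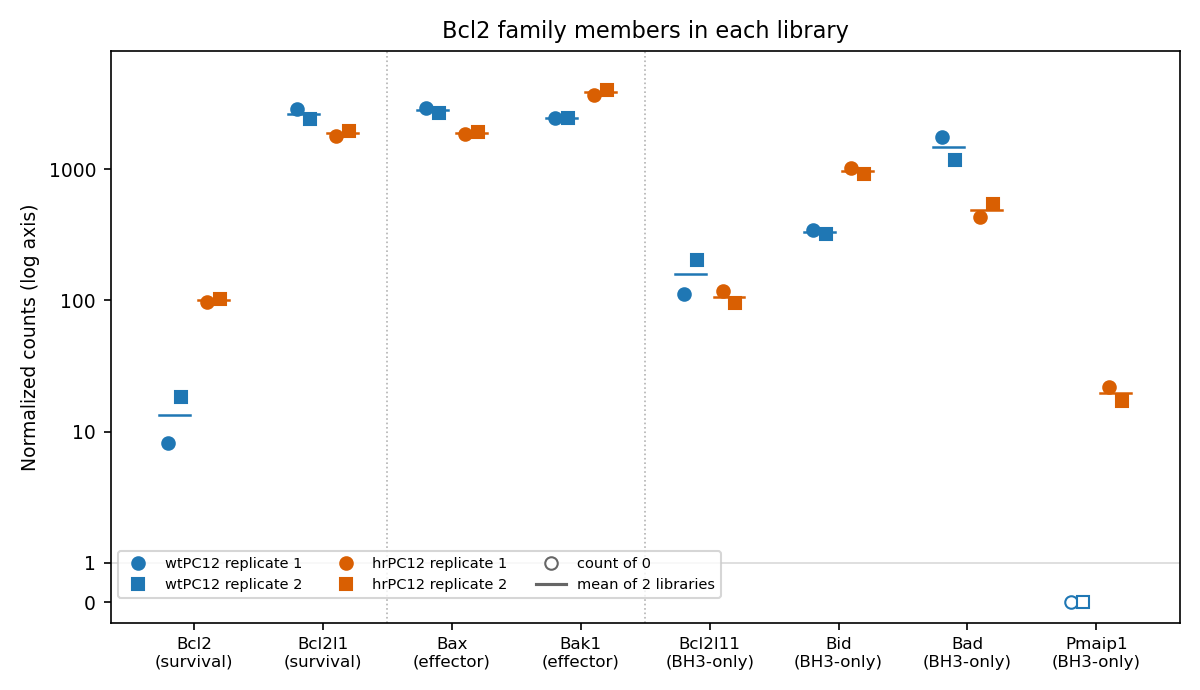
Normalized counts (log axis, with a count of 0 drawn at the bottom) of the 8 members listed in the count files, in each library of wtPC12 (blue) and hrPC12 (orange), with the mean of each clone as a bar. Bcl2, Bak1 and Bid lie higher in hrPC12, and Bad, Bax and Bcl2l1 lower. Bax and Bcl2l1 did not pass the test in edgeR. Bcl2l11 overlaps, and Pmaip1 has reads in hrPC12 only.

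The members that passed the test differed in base composition near their starts, which is shown to place them on the genome. The counts carry no sequence, so the 250 bases before each annotated start were taken from the RefSeq promoters of GRCr8, which gave 11 starts for 8 of the 10 members. The CpG dinucleotide, the site of DNA methylation, occurred 7 times in the window of Bcl2, 11 in that of Bak1, 13 in that of Bid and 8 in that of Bad, with a median of 5 over 33469 windows. The share of G and C was 33.6% for Bcl2, and 4.64% of all windows had a share as low. It was 57.6% for Bak1, 62.8% for Bid and 52.4% for Bad, with a median of 51.2% over all windows. The 150 bases next to the start are shown for the 4 called members, on the strand of the gene and ending at the base before the start, with CpG in capitals. They lie at chr13:23366901-23367050 (minus strand) for Bcl2, chr20:5110975-5111124 (minus strand) for Bak1, chr4:155808320-155808469 (minus strand) for Bid and chr1:213562964-213563113 (plus strand) for Bad.
Bcl2: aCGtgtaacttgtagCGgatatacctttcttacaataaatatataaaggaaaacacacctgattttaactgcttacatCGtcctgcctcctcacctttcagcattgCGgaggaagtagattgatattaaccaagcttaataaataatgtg
Bak1: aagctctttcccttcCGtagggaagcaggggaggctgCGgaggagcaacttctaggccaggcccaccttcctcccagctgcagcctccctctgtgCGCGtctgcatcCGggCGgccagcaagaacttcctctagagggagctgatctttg
Bid: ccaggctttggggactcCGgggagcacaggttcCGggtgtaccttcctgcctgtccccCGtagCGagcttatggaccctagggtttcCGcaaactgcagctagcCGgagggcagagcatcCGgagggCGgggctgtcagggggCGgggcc
Bad: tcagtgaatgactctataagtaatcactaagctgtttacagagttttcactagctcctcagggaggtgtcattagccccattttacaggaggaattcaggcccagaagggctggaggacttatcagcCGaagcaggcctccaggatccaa

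RE1, the element that REST binds, was searched as short pieces of its left and right parts on both strands of the 250-base windows. The letters were CAGCACC for the left part and GGACAGC for the right, which do not overlap. The left piece was in 0 of the 11 windows of members, where 5.43% of all windows hold it. The right piece was in 1, that of Bcl2l11, where 5.30% of all windows hold it. A match of 7 letters is a description of the window and not a site, and elements elsewhere in a gene were not searched.

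Bcl2 and Bcl2l1, whose product Bcl-xL has the same protective function, had opposite signs. Bcl2 had 8.14 and 18.5 normalized counts in the wtPC12 libraries, from 7 and 18 reads, and 98.2 and 102 in those of hrPC12, from 116 and 101 reads. Both hrPC12 libraries lay above both of wtPC12, and the values in wtPC12 rest on few reads. Bcl2 rose 7.38-fold, a log2 FC of 2.88 (standard error 0.50, 95% interval 1.60 to 4.16, adjusted p = 0.0133 from edgeR). The rise was 5.26-fold when wtPC12 replicate 1 was left out and 12.1-fold when replicate 2 was. Rest differed between the same wtPC12 libraries in the same direction, being 3.06 times higher in replicate 2, where Bcl2 was 2.28 times higher. Most genes that differed by more than 2-fold between these libraries did so in that direction, 1379 of 1885. A link between Rest and Bcl2 was not tested.

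Bcl2l1 had 2880 and 2411 normalized counts in wtPC12 and 1793 and 1969 in hrPC12. The hrPC12 libraries lay below those of wtPC12 by a small margin. Its log2 FC of −0.49 (standard error 0.18, 95% interval −0.96 to −0.02) did not pass the test (adjusted p = 0.0976, edgeR). The interval spans levels in hrPC12 from 0.513 to 0.985 times that in wtPC12.

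The effectors Bax and Bak1, which form the pores of the outer membrane, had opposite signs. Bax, the effector that moves from the cytosol to mitochondria, had 2952 and 2697 normalized counts in wtPC12 and 1847 and 1931 in hrPC12. All hrPC12 values were below all wtPC12 values, but the log2 FC of −0.58 (standard error 0.17, a level in hrPC12 of 0.669 times that in wtPC12 with a 95% interval of 0.498 to 0.897) had an adjusted p of 0.0511 from edgeR, just outside the threshold. Bak1, the effector that resides in the mitochondrial membrane, had 2443 and 2448 normalized counts in wtPC12 and 3668 and 4050 in hrPC12. It was higher in both hrPC12 libraries and rose 1.58-fold, a log2 FC of 0.66 (standard error 0.16, 95% interval 0.25 to 1.07, adjusted p = 0.0345 from edgeR).

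The call of Bak1 is the least secure of the 4. Leaving out wtPC12 replicate 1 gave an adjusted p of 0.0842 from edgeR, and leaving out replicate 2 gave 0.0511. For hrPC12 the values were 0.176 without replicate 1 and 0.257 without replicate 2. The adjusted p was 0.0567 with RLE factors in place of TMM. The log2 FC stayed between 0.54 and 0.73. For Bax, the adjusted p fell under 0.05 with DESeq2 (0.0429), with edgeR's filterByExpr (0.0462) and without wtPC12 replicate 2 (0.0404). Whether Bax and Bak1 differ from each other in their change was not tested.

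Among the BH3-only genes 1 rose, 1 fell, and 1 did not pass the test. Bid, whose product links the death receptors to mitochondria once a caspase has cleaved it, had 342 and 318 normalized counts in wtPC12 and 1022 and 922 in hrPC12. The libraries of each clone lay close together and far from those of the other. Bid rose 2.94-fold, a log2 FC of 1.56 (standard error 0.22, 95% interval 0.99 to 2.12, adjusted p = 0.00729 from edgeR), and lay between 1.48 and 1.58 whichever library was left out. It passed the adjusted p threshold of the study but not that of size.

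Bad, which binds the survival proteins and is held inactive by phosphorylation when growth factors are present, had 1772 and 1169 normalized counts in wtPC12 and 434 and 540 in hrPC12. Both hrPC12 libraries were below both of wtPC12, and the wtPC12 libraries differed from each other more than those of hrPC12. Bad fell 3.02-fold, with a log2 FC of −1.59 (standard error 0.29, 95% interval −2.34 to −0.85, adjusted p = 0.0156 from edgeR). The log2 FC lay between −1.86 and −1.29 whichever library was left out.

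Bcl2l11 codes for Bim, which binds all the survival proteins and is known to be induced by withdrawal of nerve growth factor. It had 112 and 205 normalized counts in wtPC12 and 119 and 95.1 in hrPC12. The clones overlapped, since wtPC12 replicate 1 fell between the libraries of hrPC12. The log2 FC of −0.57 (standard error 0.41, 95% interval −1.61 to 0.47, adjusted p = 0.319 from edgeR) allows changes in either direction. It ranged from −0.97 to −0.06 as single libraries were left out. Bcl2l11 overlaps the gene Acoxl on the rat assembly GRCr8, as Bcl2 and Bak1 overlap uncharacterized loci and Bcl2l1 a pseudogene. Since the library kit does not mark strand, reads from bases shared with such partners could not be told apart by strand. The counting set aside 0.105% to 0.329% of each file as ambiguous. Whether these partners were in the annotation used for counting is not known.

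Pmaip1, which codes for Noxa, a BH3-only protein that acts mainly on Mcl-1, had no read in either wtPC12 library. It had 26 and 17 reads in the hrPC12 libraries, or 22.0 and 17.2 normalized counts. It was left out of the main test because the filter asks for reads in both clones. Other filters let it in, and it then passed both thresholds of the study. The adjusted p from edgeR was 0.00478 with every gene with at least 1 read tested and 0.00965 with filterByExpr. The fitted log2 FC was 7.31 under both filters, a size that depends on the prior count. Against the limit of 3 reads in each wtPC12 library Pmaip1 was at least 5.96-fold higher in hrPC12, and at least 5.23-fold without hrPC12 replicate 1. These counts are low in both clones, and no further rank among the members can be read from them.

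**Figure D2:**
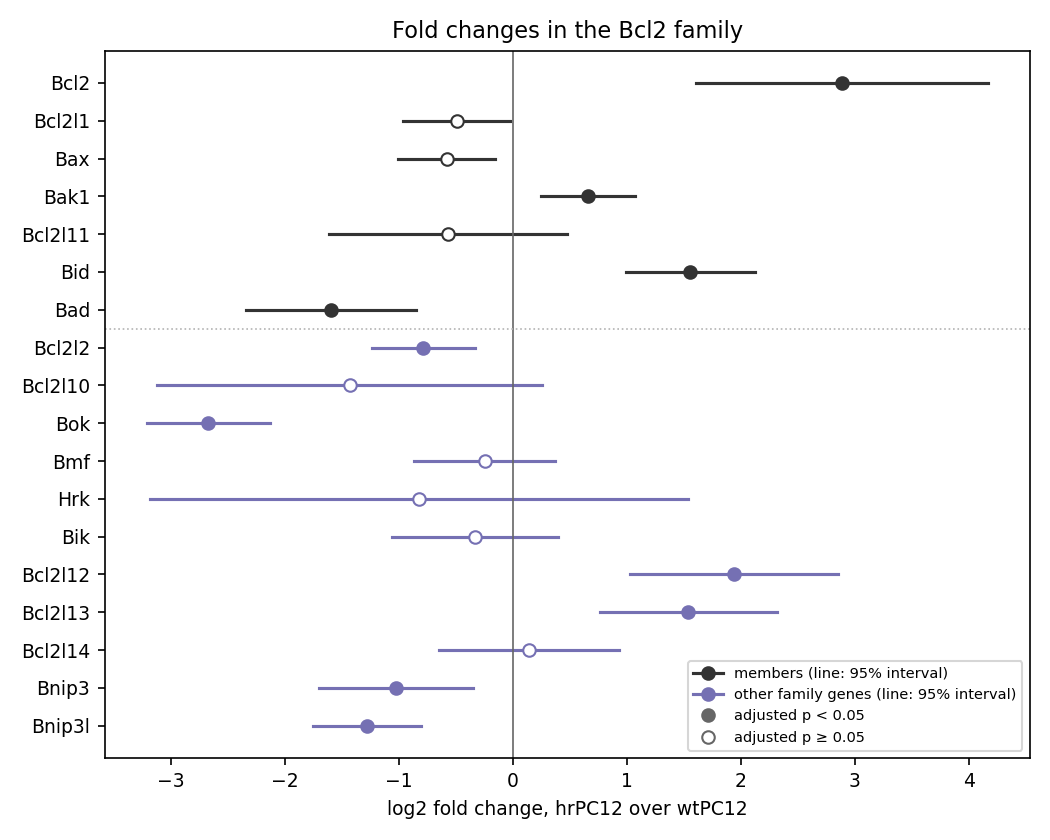
The log2 FC of the 7 tested members (black) and of 11 other genes of the family (purple), hrPC12 over wtPC12, with 95% intervals from edgeR that are not adjusted for the number of genes. Filled points have an adjusted p under 0.05, and Bcl2 at 2.88 and Bok at −2.67 mark the ends.

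Ratios of a survival gene to a death gene within a library need no scaling between libraries. They were formed from the reads of Bcl2 and Bcl2l1 over those of Bax, Bak1, Bcl2l11, Bid and Bad, 10 pairs that share genes. Since the genes differ in length, a ratio is compared only between libraries and not with 1. With 2 libraries per clone an exact permutation test of 1 ratio cannot give a 2-sided p under 0.3333, so the ratios are described without a test. In 6 pairs both hrPC12 libraries lay above both of wtPC12, in 2 below, and in 2 the clones overlapped. The share over other pairs of genes was not computed, while of single tested genes 73.5% did not overlap. All pairs with Bcl2 are among the 6 and share its rise, so they are not separate results.

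All 5 ratios with Bcl2 were higher in hrPC12. Bcl2 to Bax was 0.00276 and 0.00688 in the wtPC12 libraries and 0.0532 and 0.0529 in those of hrPC12, a 12.2-fold difference of the geometric means. It was 7.72-fold when wtPC12 replicate 1 was left out and 19.2-fold when replicate 2 was, and its size rests on the few Bcl2 reads of wtPC12. The smallest difference of these pairs was that of Bcl2 to Bid, 2.77-fold, where Bid was higher in hrPC12 as well. The largest was that of Bcl2 to Bad, 24.2-fold, in which the numerator was higher and the denominator lower. Without wtPC12 replicate 1 and replicate 2 in turn, the log2 difference was 0.83 and 2.12 for Bcl2 to Bid and 3.70 and 5.49 for Bcl2 to Bad.

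The ratios with Bcl2l1, which had many more reads, went in several directions. Bcl2l1 to Bax was 0.976 and 0.894 in wtPC12 and 0.971 and 1.02 in hrPC12, and the clones overlapped, while both genes had lower values in hrPC12. Bcl2l1 to Bak1 was 1.18 and 0.985 in wtPC12 and 0.489 and 0.486 in hrPC12, 2.21-fold lower. Bcl2l1 to Bid was 8.42 and 7.58 in wtPC12 and 1.75 and 2.14 in hrPC12, 4.13-fold lower. Bcl2l1 to Bad was 1.63 and 2.06 in wtPC12 and 4.13 and 3.64 in hrPC12, 2.12-fold higher. The direction of a ratio with Bcl2l1 therefore depended on which death gene was taken. For Bcl2l1 to Bcl2l11 the clones overlapped, with 25.8 and 11.8 in wtPC12 and 15.1 and 20.7 in hrPC12.

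**Figure D3:**
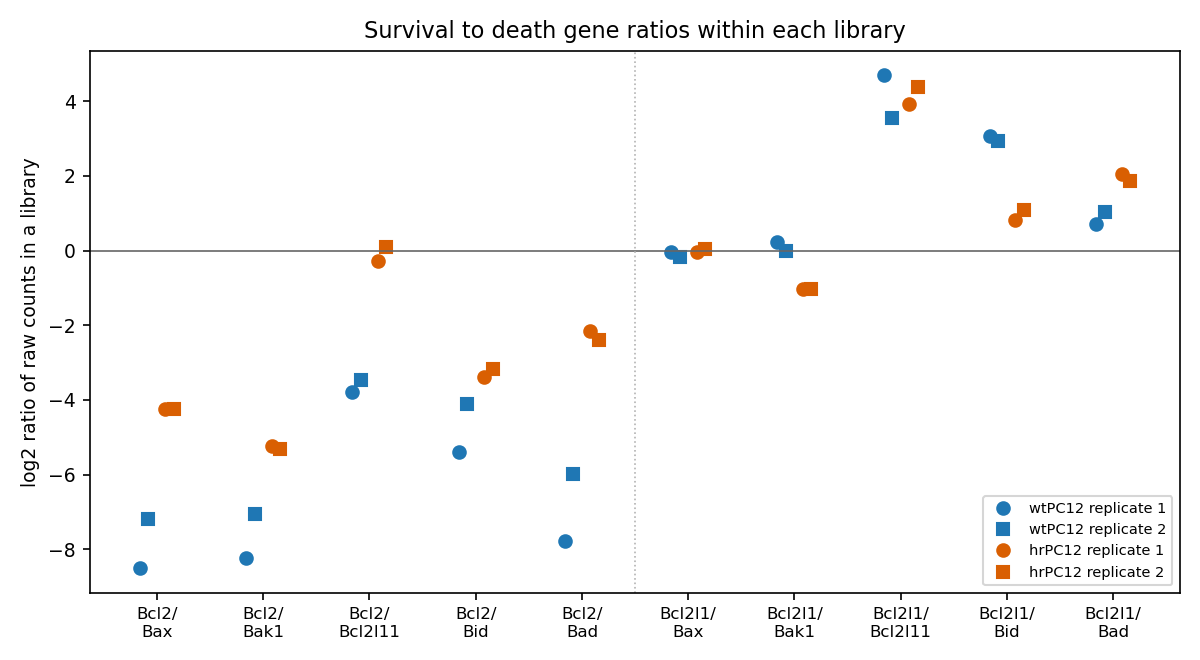
The log2 ratio of the reads of a survival gene to those of a death gene in each library of wtPC12 (blue) and hrPC12 (orange), for 10 pairs. The 5 pairs with Bcl2 on the left are all higher in hrPC12, while the pairs with Bcl2l1 on the right are lower for Bak1 and Bid, higher for Bad and overlapping for Bax and Bcl2l11.

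The other genes of the family were given as a list of 14, of which 11 were tested. Of these 2 rose and 4 fell by edgeR at an adjusted p under 0.05, DESeq2 called 6, and their median log2 FC was −0.79. For this list and those below, edgeR called 32.4% of all tested genes at that threshold and 10.3% past both thresholds of the study. Of the same 13726 genes DESeq2 called 2584 higher and 2572 lower at that threshold, and 1788 past both. An unadjusted p under 0.05 from edgeR was found for 46.3% of them. The lists are short, and no list was tested as a set. Bok, an effector-like gene that is not restrained by the survival proteins, was 6.37-fold lower in hrPC12 and the only gene of the list past both thresholds of the study. It had 6819 and 5347 normalized counts in wtPC12 and 891 and 1020 in hrPC12 (log2 FC −2.67, standard error 0.21, adjusted p = 0.00129 from edgeR). Bcl2l2, the survival gene that codes for Bcl-w, fell from 3583 ± 387 to 2076 ± 144 (SD, n = 2), 1.73-fold lower. Bnip3 and Bnip3l, whose products mark mitochondria for removal, were 2.04-fold and 2.42-fold lower. The genes that rose were Bcl2l13, another receptor for the removal of mitochondria (2.90-fold), and Bcl2l12 (3.84-fold).

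The hrPC12 libraries differed for Bcl2l12, and so did the genes around it. Its normalized counts in hrPC12 were 499 and 302, and the 7 nearest tested genes on GRCr8 had a median log2 ratio of replicate 1 to replicate 2 of 0.60. It also overlaps Irf3 on that assembly. The BH3-only genes Bmf, Bik and Hrk did not pass the test, with log2 FC of −0.25 (95% interval −0.87 to 0.37), −0.33 (−1.06 to 0.39) and −0.82 (−3.18 to 1.53). Hrk had at most 12 reads in a library.

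Downstream of the mitochondria, 14 genes of the apoptosome and the caspases were tested, of which by edgeR 3 rose, 2 fell and 9 did not pass. DESeq2 called 8 of the 14, and 10 had an unadjusted p under 0.05. Casp12, a caspase tied to stress of the endoplasmic reticulum, had 2 and 1 reads in wtPC12 and 295 and 219 in hrPC12, 145-fold higher with a counting interval of 49.2 to 703. The fitted fold of edgeR was 133, and 201 without wtPC12 replicate 1. It passed both thresholds of the study (adjusted p = 0.00100, edgeR). Cycs, which codes for cytochrome c, had 2584 and 1845 normalized counts in wtPC12 and 4852 and 4181 in hrPC12 and rose 2.04-fold. Dffa, the inhibitor of the caspase-activated DNase, rose 2.96-fold, with 887 and 498 normalized counts in the hrPC12 libraries. Endog and Htra2, whose products are released from mitochondria, were 2.06-fold and 1.74-fold lower. The caspases Casp8 and Casp9 did not pass, with log2 FC of 1.34 and 0.80 and adjusted p of 0.0556 and 0.0569 (edgeR). The median log2 FC of the list was 0.69. Casp8 overlaps Cflar, the gene of its inhibitor, on GRCr8.

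Of 8 tested genes of the death receptors and their adaptors, 3 rose and passed both thresholds of the study, and 5 did not pass. The share over all tested genes was 10.3%. No other gene of the list was called by DESeq2 or had an unadjusted p under 0.05, with 3 in each case. Fas, the receptor whose signal Bid passes on, had 2 and 0 reads in wtPC12 and 151 and 115 in hrPC12, 112-fold higher with a counting interval of 30.8 to 931. The fitted fold of edgeR was 99.7 (95% interval 23.4 to 424), and 49.9 without wtPC12 replicate 2. Tnfsf10, the gene of the ligand TRAIL, rose from 2.33 and 6.18 to 110 and 90.1 normalized counts, 22.5-fold. The rise was 15.5-fold without wtPC12 replicate 1 and 40.9-fold without replicate 2. Ripk3, a kinase of necroptosis, rose from 559 ± 19.4 to 2514 ± 60.0 (SD, n = 2), 4.50-fold. The adaptors Fadd and Tradd, in contrast, had log2 FC of 0.35 (95% interval −0.59 to 1.29) and 0.03 (−0.51 to 0.57), and Faslg had at most 18 reads in a library. The median log2 FC of the list was 0.39.

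Of the inhibitors of apoptosis, which block caspases or their activation, 4 were tested and 1 passed by edgeR. DESeq2 called 2, and 2 had an unadjusted p under 0.05. Birc3 had 19.8 and 14.4 normalized counts in wtPC12 and 136 and 135 in hrPC12, 7.90-fold higher (adjusted p = 0.00530, edgeR). Xiap had 178 and 444 in wtPC12 and 787 and 704 in hrPC12, with a log2 FC of 1.26 and an adjusted p of 0.0949 from edgeR. Birc2 had a log2 FC of 0.02 (95% interval −0.46 to 0.50), and the median of the list was 0.95.

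Of 8 transcription factors known to act on BH3-only genes, Jun rose with a log2 FC of 0.93 and E2f1 fell with −0.70, 6 did not pass by edgeR, and the median was 0.01. DESeq2 called 3 of the 8, and 4 had an unadjusted p under 0.05. Foxo1 and Foxo3, activators of Bcl2l11, did not pass, with log2 FC of 0.13 (95% interval −1.20 to 1.46) and 0.68 (−0.77 to 2.13). Their wtPC12 libraries differed 2.94-fold and 2.64-fold. Of the 4 tested genes of Mcl1 turnover 0 passed by edgeR and by DESeq2, and 0 had an unadjusted p under 0.05 (median log2 FC −0.04). The same counts hold for the 2 tested channel genes of the outer membrane, Vdac2 and Vdac3 (median −0.33).

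Over the 60 tested genes of these lists and 1 further list that is not described, 11 rose and 8 fell by edgeR at an adjusted p under 0.05, 19 of 60, where 32.4% of all tested genes were called. Past both thresholds of the study there were 5 and 2, where 10.3% of all tested genes were called, so that these shares lay near those of all tested genes. DESeq2 called 24 and 7, where of 13726 tested genes it called 2584 higher and 2572 lower, and 1788 past both thresholds. The median log2 FC was 0.06, as over all tested genes. Of the 19 calls, 10 held under every alternative in which they were tested and 9 were lost under at least 1, mostly when a library was left out. Fas was not tested without wtPC12 replicate 1, where wtPC12 has 0 reads of it. Without hrPC12 replicate 1 the adjusted p from edgeR was 0.215 for Bcl2l2, 0.139 for Bnip3, 0.0701 for Cycs and 0.236 for Htra2. In the same setting it was 0.165 for Endog, 0.122 for Dffa, 0.242 for E2f1 and 0.0778 for Jun. Without hrPC12 replicate 2 it was 0.0862 for Bcl2l2, 0.0772 for Bnip3, 0.0885 for Htra2, 0.0858 for Endog, 0.138 for E2f1 and 0.172 for Jun. Without wtPC12 replicate 1 it was 0.0756 for Bnip3, 0.0709 for Htra2, 0.0683 for Endog, 0.0577 for Dffa and 0.0525 for Jun. Without wtPC12 replicate 2 it was 0.0703 for Bcl2l12, 0.0514 for Cycs, 0.115 for Dffa and 0.0518 for Jun. With totals of reads alone E2f1 had 0.0574.

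**Figure D4:**
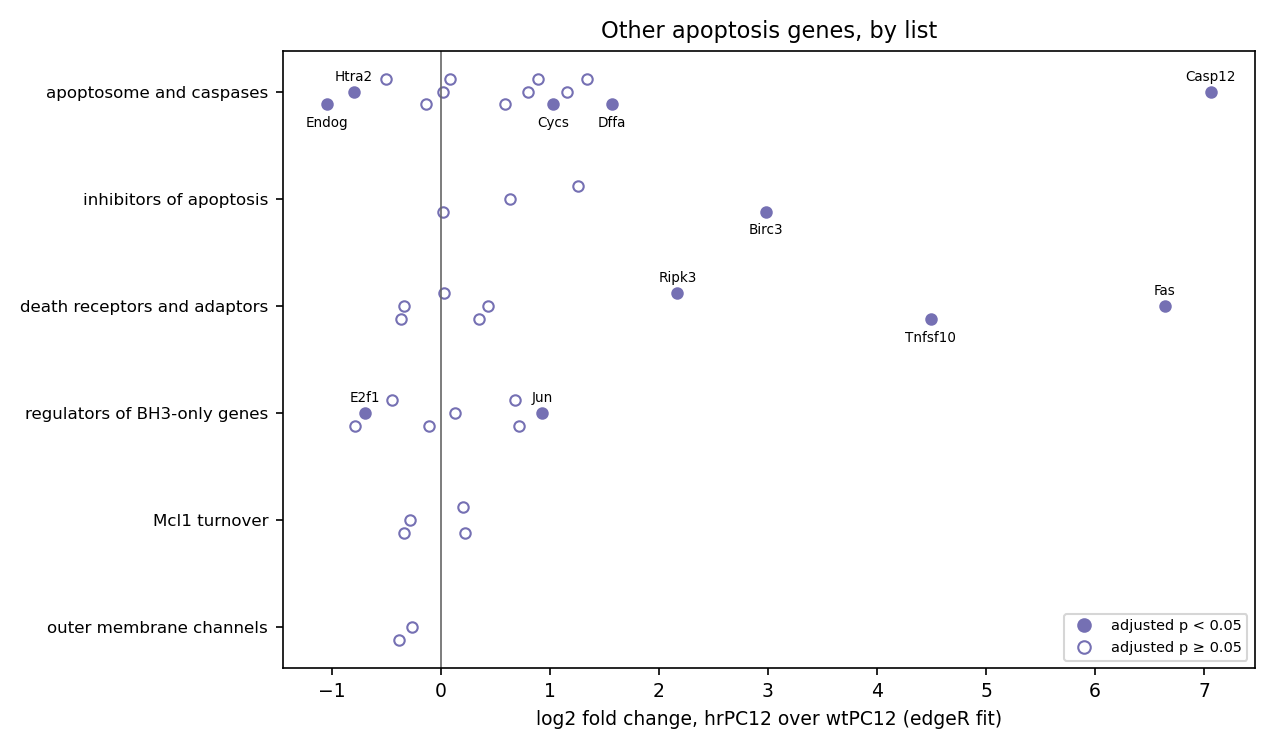
The log2 FC (hrPC12 over wtPC12, edgeR) of the tested genes of 6 apoptosis lists, 1 point per gene, with genes at an adjusted p under 0.05 filled and named. Casp12, Fas, Tnfsf10 and Birc3 lie farthest to the right, and the fitted values of Casp12 and Fas depend on the prior count because 1 clone had at most 3 reads in all.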

How the data were processed

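The authors aligned paired-end reads to the rat build RGSC3.4 (rn4) with TopHat. They deposited raw counts of reads per gene, 1 value per gene and library, with no normalization. The submitters' processing notes name TopHat2 2.0.4, HTSeq 0.5.3 and DESeq 1.9.12. The annotation is not given in the sources used here. Reads that the counting assigned to no gene feature, 49.9% to 55.9% of each file, stayed out of library sizes. A deposited table of the authors' DESeq comparison, with mean counts, fold changes and p-values, was not used.

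Counts were scaled with TMM factors and compared with edgeR 4.0.16 (R 4.3.3, quasi-likelihood test, legacy option on, Benjamini-Hochberg over 13726 genes), for genes whose normalized mean reached 5 and that had a read in each clone. Standard errors are the coefficient over the root of its F statistic. DESeq2 1.42.0 was an alternative. Tests were also run on simulated counts, which varied less than the data and held only large changes in genes with more than few reads. That run does not show how the tests perform for small changes or for genes with few reads. The counting intervals are exact 95% binomial intervals. They use the reads summed over the libraries of a clone and leave out the spread between libraries. Named genes are Rest, the members and the fixed lists. Members, lists and tests were chosen with earlier results of these data known. The sequence windows and RE1 pieces were chosen after the data were seen. List genes without a row of that name are not analysed here. Levels per length and protein sequences were planned and not computed, since no transcript lengths or proteins were at hand. Some results of the lists are not reported here.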

Additional observations from a re-analysis of the deposited data

How the results depend on the processing

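The alternatives were RLE factors, totals of reads alone, every gene with at least 1 read, filterByExpr, DESeq2, the legacy option off, a prior count of 2 and each library left out in turn, in which a lone library is taken to vary like the other clone. No log2 FC of a member reversed. The prior count of 2 changes fold changes only and leaves the p values as they were, so it could not alter a call. Bcl2, Bid and Bad kept their call at an adjusted p under 0.05 in all 11, and Bcl2l1 and Bcl2l11 stayed without one. For Bak1 the log2 FC was 0.62 with RLE factors and 0.54 to 0.73 with a library left out. For Bax it was −0.58 with filterByExpr, −0.62 with DESeq2 and −0.66 to −0.54 with a library left out. The number of members past both thresholds of the study and higher in hrPC12 was 0. With RLE factors, totals alone, DESeq2 or the legacy option off it was 1, which was Bcl2. With filterByExpr it was 1, which was Pmaip1, and with every gene tested it was 2, Bcl2 and Pmaip1. Pmaip1 was tested only under these last filters, so the counts do not cover the same members. This count is not given with a library left out, since 1 clone then has a lone library. The number lower at an adjusted p under 0.05 was 1, and 2 with filterByExpr or DESeq2, and 1 to 2 with a library left out. The number higher was 3, and 2 to 4 under the alternatives. Among all tested genes, edgeR without wtPC12 replicate 2 left 0 past both thresholds, against 1414. The log2 difference of Bcl2l1 to Bcl2l11, where the clones overlapped, lay between −0.54 and 0.59 with a library left out. The cause was not tested. No scaling moved the median log2 FC of all genes by over 0.1. No paired analysis was run because nothing in the labels pairs a library of wtPC12 with a library of hrPC12. The replicate numbers used here do not mark pairs. Levels per length were not run.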
